A study of Macaca mulatta with 12 samples.

Results

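This report describes 10 genes of the chemokine system in stimulated and unstimulated macrophages of the rhesus macaque (Macaca mulatta). They are the neutrophil-attracting ligands CXCL1 and CXCL2, the monocyte-attracting ligands CCL2, CCL8, CCL3 and CCL4L1, the ligand CCL20, the interferon-type ligand CXCL10, and the receptors CCR1 and CCR2. The genes were chosen by name, with earlier results of these data known, so counts of these genes called are not independent of that choice. All 10 were found among the 32386 genes of the deposited count table, and all 10 passed the filter on low counts that left 11826 genes for testing.

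Sorted CD14+CD16-CD163+ blood cells, which the labels call macrophages, came from macaques given an autologous transplant of CD34+ cells edited with CRISPR/Cas9, in a study titled for TET2 mutation. That transplant is shared by all 4 groups, and no unedited or untransplanted group was analysed here. The groups are late stimulated and late unstimulated cells, taken 19 months after transplantation, and early stimulated and early unstimulated cells, taken at 4.5 months. Stimulated cells (labelled ACT) were kept for 8 hours with 100 ng/ml lipopolysaccharide (LPS), a bacterial cell wall component, and 20 ng/ml interferon-gamma by the protocol, although the treatment label of these libraries names LPS alone. Unstimulated cells (labelled CTL) were kept for the same time without either agent. Each group has 3 libraries. The labels do not say whether these come from different animals or wells, and every p-value below therefore reflects the spread among libraries alone, which may be technical. No animal age, sequencing date or batch is given, so time after transplantation and any difference in handling between the sampling dates cannot be told apart.

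Chemokines are small secreted proteins that draw leukocytes along a gradient by binding G protein-coupled receptors on the moving cell. CXCL1 and CXCL2 act through CXCR2 and attract neutrophils. CCL2 and CCL8 act through CCR2, which sets the exit of monocytes from the bone marrow and their entry into tissue. CCL3 binds CCR1, and CCL3 and the CCL4 proteins draw monocytes and T cells. CCL20 attracts lymphocytes and dendritic cells through CCR6. CXCL10 is induced by interferons and attracts activated T and NK cells through CXCR3. In monocytes and macrophages, LPS turns on most of these ligands through NF-kB, and human monocytes lose CCR2 as they mature into macrophages.

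The 12 libraries held between 3910680 and 12972505 counts. The summed level of 8 monocyte and macrophage markers, in CPM (counts per 1000000 counts of the library), ran from 5924 to 6094 in late stimulated cells, 6473 to 6985 in late unstimulated cells, 8455 to 9393 in early stimulated cells and 11726 to 12025 in early unstimulated cells. The sorted markers CD14 and CD163 were present in every library but had lower mean levels late. In unstimulated cells CD14 averaged 1534 CPM late and 2359 CPM early, and CD163 597 and 1301 CPM. In stimulated cells CD14 averaged 1447 CPM late and 2292 CPM early, and CD163 543 and 1176.5 CPM. The scarce MRC1 of the same list was higher late, at 3.35 against 1.60 CPM in unstimulated and 2.26 against 1.37 CPM in stimulated cells. The summed level of 8 neutrophil markers, a list that includes the chemokine receptors CXCR1 and CXCR2, was also lower late: 328 to 404 CPM in late stimulated cells and 371 to 426 in late unstimulated cells, against 631 to 683 in early stimulated cells and 710 to 755 in early unstimulated cells. CSF3R and CAMP carried that sum, whereas the scarcer granule genes MPO, MMP8, LTF and ELANE had higher mean levels late. MMP8, for example, averaged 2.84 CPM in late stimulated and 2.40 CPM in late unstimulated cells. It averaged 1.39 CPM in early stimulated and 0.660 CPM in early unstimulated cells. Scarce genes were higher late well beyond these lists. The 15151 genes detected but under 1 CPM on average summed to 4872 CPM in late stimulated and 4847 CPM in late unstimulated cells. Their sums were 1376.5 CPM in early stimulated and 1521 CPM in early unstimulated cells. The part of that wider trait in the late levels of MRC1 and the granule genes was not tested. Of the T cell list, the defining genes CD3E and CD3G had at most 6 and 2 counts in a library, while IL7R, which carried nearly all of the summed level of that list, averaged between 286 CPM in early unstimulated cells and 325 CPM in late unstimulated cells. The part of this shift in marker levels in the results below was not tested, and in RNA from whole samples a lower level per cell and fewer expressing cells cannot be told apart. One early stimulated library, replicate 1, stands apart from its group: the chi-square per degree of freedom of its counts was 28.4 and 29.3 against replicates 2 and 3, and 2.76 to 10.8 for every other pair of replicates. Where leaving it out changed a call printed below, the value without it is given beside the result. At 19 months the stimulated and unstimulated libraries could not be separated by edgeR's quasi-likelihood test for any of the 11826 genes at an adjusted p under 0.05. At an unadjusted p under 0.05, 527 of the 11826 genes passed, no more than that threshold passes where nothing differs. Without early stimulated replicate 1, edgeR called 19 genes higher and 10 lower with stimulation at 19 months. DESeq2, a second count model, called 15 with all libraries.

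Unstimulated cells at 19 months held 7 of the 8 ligands at higher levels than unstimulated cells at 4.5 months, and CXCL10, CCR1 and CCR2 at lower levels. All 10 genes passed edgeR's test at an adjusted p under 0.05, 7 as higher and 3 as lower, where 20.9% of all genes tested were higher and 19.8% lower. Among genes above 1000 CPM on average, as CXCL1, CXCL2, CCL3 and CCL4L1 were, 35.8% were higher. Among those of 10 to 100 CPM, as CXCL10 and CCR1 were, 28.2% were lower. The median log2 fold change was 1.71 over the 10 genes and 0.02 over all genes. In CPM, each of these 10 genes had all its late unstimulated libraries on one side of all its early ones, as did 22.8% of all genes on the higher side and 30.4% on the lower side. In stimulated cells CXCL2, CCL2 and CCL8 were higher late, CXCL10 and CCR1 were lower, and 5 genes did not pass (19.1% of all genes were higher and 19.7% lower). Of genes above 1000 CPM, 10.6% were higher and 47% lower in stimulated cells, and of those of 10 to 100 CPM 27.6% were lower. The median log2 fold change there was -0.09 over the 10 genes and 0.05 over all genes. Groups without overlap in CPM, late above early, were found for 33.5% of all genes in stimulated cells, and late below early for 18.5%.

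At 4.5 months stimulation raised the same 7 ligands and lowered CCR2, while CXCL10 and CCR1 did not pass. Of all genes tested, 4.57% were higher and 2.66% lower in that comparison, and among genes above 1000 CPM on average, as CXCL1, CXCL2, CCL3 and CCL4L1 were, 36.4% were higher. All early stimulated libraries lay above all early unstimulated ones in CPM for 4.44% of all genes and below them for 33.7%. At 19 months none of the 10 genes passed, and the libraries of the 2 groups stood apart in CPM for 4.23% of all genes on the stimulated side and for 7.5% on the unstimulated side. The difference between these stimulation responses, tested as an interaction, was negative for the 7 ligands, which had the smaller response at 19 months, against 1.23% of all genes and 18.5% of genes above 1000 CPM. No member was called in the positive direction, where 0.186% of all genes were.

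**Figure D1:**
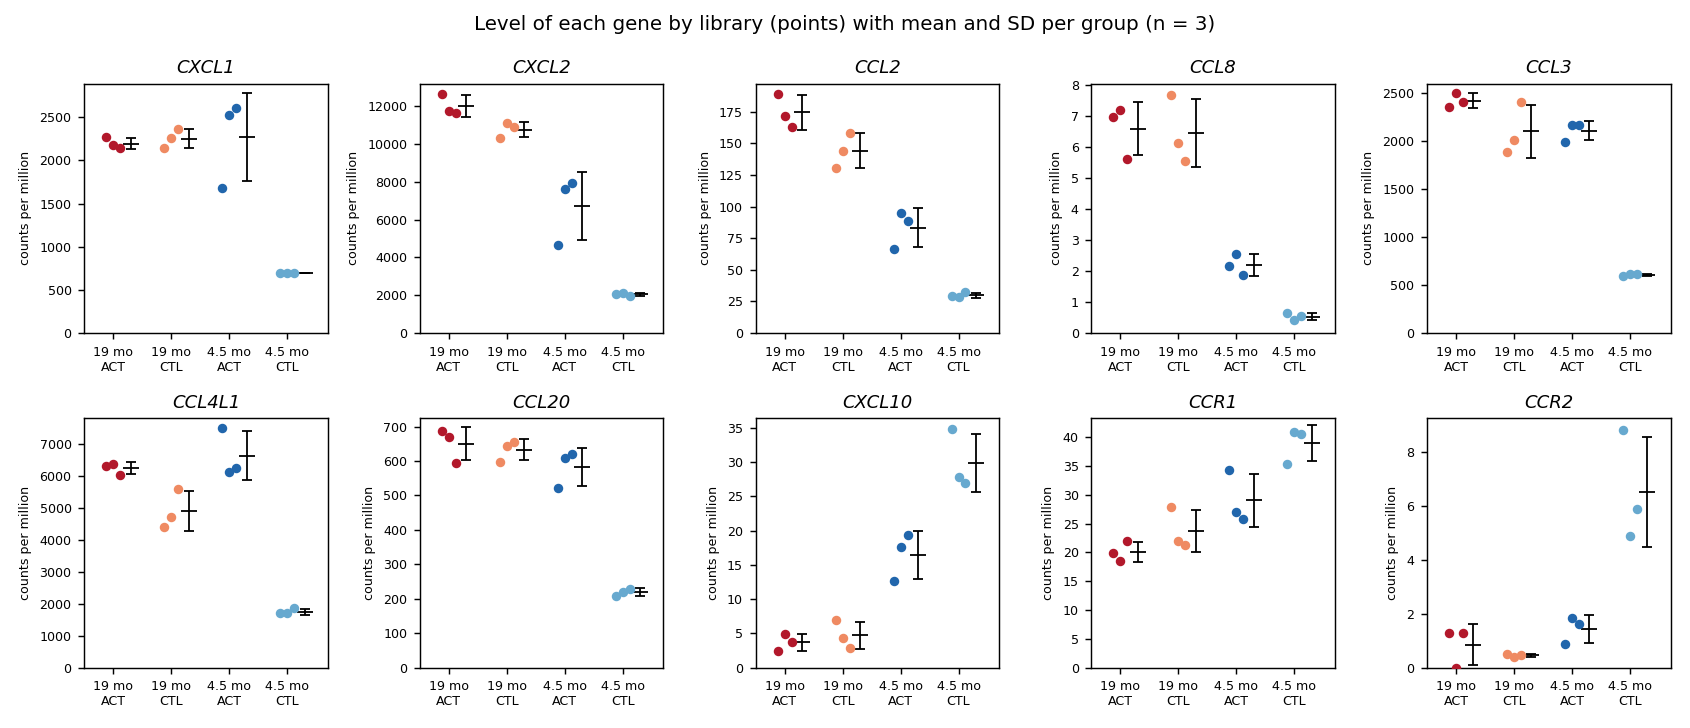
Level of each of the 10 genes in CPM (vertical axes, each from 0 on its own scale) in late (19 mo) and early (4.5 mo) stimulated (ACT) and unstimulated (CTL) macrophages. Points are libraries, and the bars beside them are the mean and SD of 3 libraries. CXCL1 through CCL20 are lowest in the early unstimulated libraries, and CXCL10, CCR1 and CCR2 are highest there.

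CXCL1, a neutrophil attractant (chromosome 5 of Mmul_8.0.1, 60817418 to 60821678), stood at one level in 3 of the groups and low in the remaining group. Its level was 2273, 2174 and 2139.9 CPM in the late stimulated libraries and 2142, 2256 and 2364 CPM in the late unstimulated libraries. The early stimulated libraries held 1685, 2528 and 2608 CPM, and the early unstimulated libraries 696, 693 and 692 CPM. The first 3 groups overlap, and the early unstimulated libraries lie below all of them.

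In unstimulated cells CXCL1 was 3.47-fold higher at 19 than at 4.5 months (log2 fold change 1.79 ± 0.13 SE, edgeR adjusted p = 5.48e-11). Stimulation raised it 3.96-fold at 4.5 months (1.99 ± 0.13, edgeR adjusted p = 1.79e-11). At 19 months the stimulation log2 fold change was -0.00 ± 0.12, with a 95% interval of -0.26 to 0.25. The interaction was -1.99 ± 0.17 (edgeR adjusted p = 4.02e-08). Between stimulated cells of the 2 times the log2 fold change was -0.20 ± 0.12 and did not pass (edgeR adjusted p = 0.209). Without early stimulated replicate 1 it was -0.38 and passed as lower late (edgeR adjusted p = 1.77e-05).

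CXCL2, its close relative that also attracts neutrophils (chromosome 5, 60487858 to 60490982), had libraries of all 4 groups at separate levels in CPM. It had 12649.9, 11723 and 11639.9 CPM in late stimulated libraries and 10318, 11079 and 10877 CPM in late unstimulated libraries. Early stimulated libraries had 4639, 7589 and 7945 CPM, and early unstimulated libraries 2039, 2105 and 1973 CPM. No library of one group reached the range of the next.

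The late over early log2 fold change of CXCL2 was 2.49 ± 0.14 in unstimulated cells (5.63-fold, edgeR adjusted p = 9.39e-13) and 0.69 ± 0.13 in stimulated cells (1.61-fold, edgeR adjusted p = 2.36e-04). Early stimulated replicate 1 was the lowest of its group, and without it the value in stimulated cells was 0.47 (edgeR adjusted p = 1.19e-07). Stimulation raised CXCL2 3.99-fold at 4.5 months (log2 1.99 ± 0.14, edgeR adjusted p = 7.06e-11). The log2 fold change at 19 months was 0.19 ± 0.13 and did not pass (edgeR adjusted p = 0.998). The interaction was -1.80 ± 0.19 (edgeR adjusted p = 5.67e-07).

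The identity of CXCL1 carries a limit. The deposited result tables give the symbol CXCL1 to the row used above and describe a second row as CXCL3, whereas a later Ensembl name table calls that second row CXCL1. The deposited tables were followed, since they use the build of the counts. The row described as CXCL3 (chromosome 5, 60629651 to 60631038) lies between CXCL2 and CXCL1, and these paralogs are close enough in sequence that reads may be shared among them. It averaged 5602 ± 389.6 CPM in late stimulated cells, 4712 ± 322 in late unstimulated cells, 4035 ± 598 in early stimulated cells and 1267 ± 48.3 in early unstimulated cells (SD, n = 3 each). Its calls were those of CXCL1 in 4 of the 5 tests. In stimulated cells it was higher late by 0.33 on the log2 scale (edgeR adjusted p = 0.0231), where CXCL1 did not pass. Without early stimulated replicate 1 its stimulation response at 19 months was 0.28 and passed (edgeR adjusted p = 0.0318).

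CCL2, the main monocyte attractant and a ligand of CCR2 (chromosome 16, 28231966 to 28234328), had the same order of groups as CXCL2. Late stimulated libraries held 189, 172 and 163 CPM, and late unstimulated libraries 130.4, 144 and 158 CPM. Early stimulated libraries held 66.3, 95.05 and 88.9 CPM, and early unstimulated libraries 29.3, 28.4 and 32.3 CPM. All 4 groups lie apart.

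Late cells had more CCL2 than early cells both without stimulation (5.13-fold, log2 2.36 ± 0.14, edgeR adjusted p = 2.65e-12) and with it (1.88-fold, log2 0.91 ± 0.13, edgeR adjusted p = 7.32e-06). Stimulation raised CCL2 3.38-fold at 4.5 months (log2 1.76 ± 0.14, edgeR adjusted p = 1.19e-09). At 19 months the log2 fold change was 0.30 ± 0.13, which did not pass (edgeR adjusted p = 0.998). The interaction was -1.45 ± 0.19 (edgeR adjusted p = 2.21e-05).

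CCL8 encodes a monocyte attractant that also binds CCR2, and its gene lies 50.6 kb from CCL2 (chromosome 16, 28284915 to 28287005). In unstimulated cells it had the largest late over early log2 fold change of the 8 ligands, but at low counts. It had 54, 55 and 52 counts in late stimulated libraries and 30, 45 and 36 in late unstimulated libraries. The early stimulated libraries had 10, 33 and 24 counts and the early unstimulated libraries 4, 4 and 6. The late groups averaged 6.59 ± 0.853 CPM stimulated and 6.45 ± 1.10 CPM unstimulated and overlap. The early stimulated libraries averaged 2.19 ± 0.344 CPM and the early unstimulated 0.532 ± 0.118 CPM (SD, n = 3 each), each apart from the other groups.

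In unstimulated cells CCL8 was 12.7-fold higher late (log2 3.66 ± 0.39, edgeR adjusted p = 5.67e-08). The ratio of the pooled counts, 111 late and 14 early, scaled to the group totals, was 12.1 with a 95% counting interval of 6.89 to 22.8. In stimulated cells CCL8 was 2.70-fold higher late (log2 1.43 ± 0.30, edgeR adjusted p = 6.74e-04). Stimulation raised it 4.96-fold at 4.5 months (log2 2.31 ± 0.41, edgeR adjusted p = 4.75e-04). The interaction of -2.23 ± 0.51 passed (edgeR adjusted p = 0.0188), but not when any of 5 libraries was left out: late stimulated replicate 3, late unstimulated replicate 1, early stimulated replicate 2, or early unstimulated replicate 2 or 3 (adjusted p = 0.0506 to 0.0995). Of the tested genes between 1 and 10 CPM on average, as CCL8 was, 18.8% were higher late in unstimulated cells, near the 20.9% over all genes. Among tested genes under 1 CPM that share was 65.2%.

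CCL3 and CCL4L1 encode the macrophage inflammatory proteins, which recruit monocytes and T cells. CCL3 (chromosome 16, 30056045 to 30057421) was found by the deposited description of its row. CCL4L1 (chromosome 16, 25016079 to 25018866) was found by the name table. The primate CCL3 and CCL4 genes occur in near-identical copies, so counts may be split among copies and the level of each row is uncertain.

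CCL3 stood at 2349, 2502 and 2406 CPM in late stimulated libraries and 1882, 2009.7 and 2409 CPM in late unstimulated libraries. It stood at 1992, 2169 and 2166.2 CPM in early stimulated libraries and 596, 616 and 614 CPM in early unstimulated libraries. Late unstimulated and early stimulated libraries overlap, and early unstimulated libraries lie far below. CCL3 was 3.68-fold higher late in unstimulated cells (log2 1.88 ± 0.11, edgeR adjusted p = 2.12e-12). Stimulation raised it 4.20-fold at 4.5 months (log2 2.07 ± 0.11, edgeR adjusted p = 7.09e-13). Late and early stimulated cells differed by 0.05 ± 0.11 on the log2 scale (edgeR adjusted p = 0.754, 95% interval -0.17 to 0.27), although every late library was higher in CPM: TMM scaling factors, between 0.879 and 1.10, were lowest in the early stimulated group.

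CCL4L1 was highest in the stimulated groups, with 6315, 6376.5 and 6043 CPM late and 7507, 6137 and 6249 CPM early, which overlap. Late unstimulated libraries held 4411, 4717 and 5601 CPM, below both stimulated groups, and early unstimulated libraries held 1699.5, 1699 and 1857 CPM. CCL4L1 was 2.99-fold higher late in unstimulated cells (log2 1.58 ± 0.12, edgeR adjusted p = 1.42e-10) and 4.59-fold higher with stimulation at 4.5 months (log2 2.20 ± 0.12, edgeR adjusted p = 7.09e-13). At 19 months each stimulated library lay above each unstimulated one in CPM for CCL4L1, as for 4.23% of all genes. Its stimulation response there was 0.38 ± 0.11 on the log2 scale, with an edgeR adjusted p of 0.946. Without early stimulated replicate 1, a library outside that comparison that enters the shared estimate of spread, the value was again 0.38 and passed (edgeR adjusted p = 0.00117). The interactions were -1.83 ± 0.15 for CCL3 (edgeR adjusted p = 1.43e-08) and -1.82 ± 0.16 for CCL4L1 (edgeR adjusted p = 5.33e-08).

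CCL20, a ligand of CCR6 that attracts lymphocytes and dendritic cells (chromosome 12, 110179626 to 110183532), resembled CXCL1. It had 688, 668 and 595 CPM in late stimulated libraries, 597, 644 and 656 CPM in late unstimulated libraries, and 520.4, 609 and 619.6 CPM in early stimulated libraries. These 3 groups overlap. The early unstimulated libraries held 208, 220.0 and 229.6 CPM, below all the others. CCL20 was 3.08-fold higher late in unstimulated cells (log2 1.62 ± 0.11, edgeR adjusted p = 3.55e-11), and stimulation raised it 3.22-fold at 4.5 months (log2 1.69 ± 0.11, edgeR adjusted p = 3.33e-11). The interaction was -1.61 ± 0.15 (edgeR adjusted p = 1.34e-07). Between stimulated cells of the 2 times the log2 fold change was 0.01, with a 95% interval of -0.21 to 0.23 (edgeR adjusted p = 0.959).

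CXCL10, the T and NK cell attractant induced by interferon-gamma (chromosome 5, 58528129 to 58529649), went the other way from the other 7 ligands. It had 2.45, 4.96 and 3.78 CPM in late stimulated libraries and 6.90, 4.35 and 2.93 CPM in late unstimulated libraries. Early stimulated libraries had 12.6, 17.6 and 19.3 CPM, and early unstimulated libraries 34.7, 27.8 and 26.96 CPM. The late groups overlap each other, and all late libraries lie below all early ones.

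The late over early log2 fold change of CXCL10 was -2.63 ± 0.26 in unstimulated cells (6.17-fold lower, edgeR adjusted p = 2.35e-08) and -2.32 ± 0.26 in stimulated cells (4.98-fold lower, edgeR adjusted p = 2.07e-07). Among the 11826 genes it ranked 18 from the lowest fold change in unstimulated cells and 19 in stimulated cells. CXCL10 was not called higher with LPS and interferon-gamma at either time. At 4.5 months each stimulated library lay below each unstimulated library in CPM, with a log2 fold change of -0.55 ± 0.22 that did not pass (edgeR adjusted p = 0.136, 95% interval -0.99 to -0.10). At 19 months it was -0.24 ± 0.31 (edgeR adjusted p = 0.998), and the interaction was 0.31 ± 0.38 (edgeR adjusted p = 0.830, 95% interval -0.47 to 1.09). CXCL9, the neighbouring CXCR3 ligand, was too scarce to test and was looked at after its values were seen. It had 3, 5 and 7 counts in late stimulated libraries, 0, 2 and 2 in late unstimulated libraries, 2, 2 and 0 in early stimulated libraries and 0 in each early unstimulated library, where the pooled total allows up to 0.111 CPM.

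CCR1, a receptor for CCL3 on monocytes and neutrophils (chromosome 2, 96351311 to 96357890), was lower late. Its level was 19.9, 18.6 and 22.0 CPM in late stimulated libraries and 27.9, 21.9 and 21.3 CPM in late unstimulated libraries. It was 34.3, 27.1 and 25.8 CPM in early stimulated libraries and 35.4, 40.9 and 40.5 CPM in early unstimulated libraries. In CPM the early unstimulated libraries lie above all others, and the late stimulated libraries lie below the early stimulated ones. The late unstimulated libraries overlap both stimulated groups. At 4.5 months 33.7% of all genes had every stimulated library below every unstimulated one in CPM. TMM factors were 0.879 for early stimulated replicate 1 and 1.08 to 1.10 for the early unstimulated libraries. With these factors that replicate lies above the early unstimulated libraries. CCR1 was 1.56-fold lower late in unstimulated cells (log2 -0.64 ± 0.16, edgeR adjusted p = 0.00298) and 1.58-fold lower in stimulated cells (log2 -0.66 ± 0.16, edgeR adjusted p = 0.00269). The stimulation response did not pass at 4.5 months (log2 -0.17 ± 0.16, edgeR adjusted p = 0.594) or at 19 months (log2 -0.18 ± 0.17, edgeR adjusted p = 0.998). The interaction was -0.02, with a 95% interval of -0.49 to 0.46.

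CCR2, the receptor of CCL2 and CCL8 (chromosome 2, 96185665 to 96188027, 163 kb from CCR1), was highest in early unstimulated cells. It had 10, 0 and 12 counts in late stimulated libraries and 2, 3 and 3 in late unstimulated libraries. The early stimulated libraries had 4, 24 and 21 counts and the early unstimulated libraries 55, 48 and 64. In CPM the early unstimulated libraries held 8.81, 4.88 and 5.87, and no library of another group exceeded 1.85.

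In unstimulated cells CCR2 was 12.9-fold lower late (log2 -3.69 ± 0.61, edgeR adjusted p = 3.57e-05). Only the early unstimulated group had more than 10 counts in every library. CCR2 thus passed the filter on low counts through the group where it is highest. This fold change is not independent of that filter, and its rank among the tested genes is not given. The pooled counts, 8 late and 167 early, gave a 13.7-fold lower level with a 95% counting interval of 6.80 to 32.3. Among tested genes of 1 to 10 CPM, 10.9% were lower late in unstimulated cells. At 4.5 months CCR2 was 3.44-fold lower in stimulated cells (log2 -1.78 ± 0.47, edgeR adjusted p = 0.0174), and the pooled counts, 49 stimulated and 167 unstimulated, gave a 3.85-fold lower level (95% counting interval 2.79 to 5.41). That call was lost without early stimulated replicate 3 (adjusted p = 0.05005), early unstimulated replicate 1 (0.111) or early unstimulated replicate 3 (0.0554). In stimulated cells the late over early log2 fold change was -0.94 ± 0.56 and did not pass (edgeR adjusted p = 0.193, 95% interval -2.10 to 0.22). The interaction of 2.76 ± 0.88 did not pass (edgeR adjusted p = 0.147). Without late stimulated replicate 2, the library with no CCR2 count, it was 3.30 and passed (edgeR adjusted p = 0.0184).

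**Figure D2:**
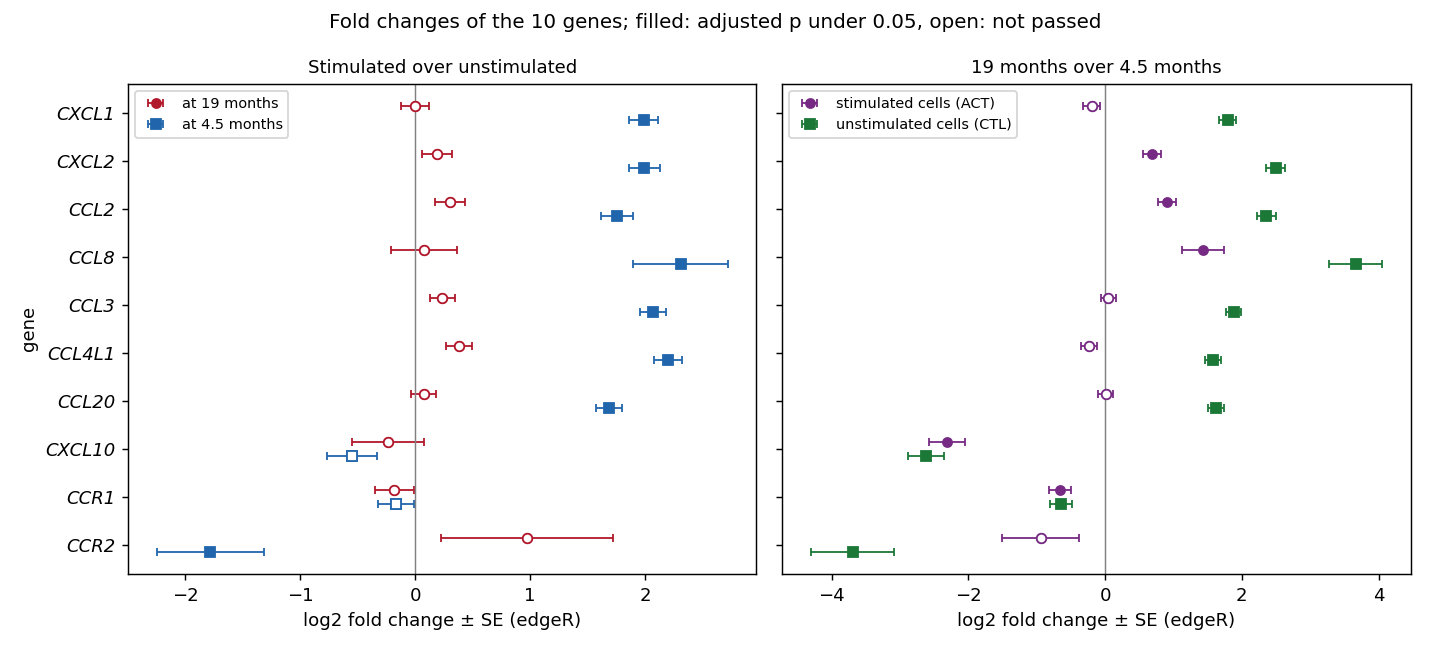
Log2 fold change with its SE from edgeR for each of the 10 genes, stimulated over unstimulated on the left (19 months red circles, 4.5 months blue squares) and late over early on the right (stimulated cells purple circles, unstimulated cells green squares). Filled symbols passed an adjusted p under 0.05. The 7 ligands from CXCL1 to CCL20 lie between 1.69 and 2.31 for stimulation at 4.5 months and between -0.00 and 0.38 at 19 months.

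The summed levels of the chemokine classes are descriptions and carry no test. Summed over CXCL1 and CXCL2, the neutrophil-attracting class was 14199.9 ± 629 CPM in late stimulated cells, 13012 ± 480.5 in late unstimulated cells, 8998 ± 2326 in early stimulated cells (10335 without replicate 1) and 2733 ± 66.4 in early unstimulated cells. The monocyte-attracting class of CCL2, CCL8, CCL3 and CCL4L1 was 8845 ± 221 CPM in late stimulated cells, 7161 ± 905 in late unstimulated cells, 8826 ± 644 in early stimulated cells and 2391 ± 97.9 in early unstimulated cells. The interferon-type class, CXCL10 alone, was 3.73 ± 1.26 CPM in late stimulated cells, 4.73 ± 2.01 in late unstimulated cells, 16.5 ± 3.49 in early stimulated cells and 29.8 ± 4.27 in early unstimulated cells (SD, n = 3 each). The sums are dominated by CXCL2 and by CCL4L1 and CCL3. In CPM without TMM factors, stimulated cells of the 2 times stood apart in the neutrophil-attracting sum and overlapped in the monocyte-attracting sum. TMM factors were 0.879 to 0.909 in early and 0.992 to 1.01 in late stimulated libraries. With them, the monocyte-attracting sum was higher in every early than in every late stimulated library, and the neutrophil-attracting sum stayed apart. Single genes did not divide by class: CXCL1 overlapped, while CCL2 and CCL8 were called higher late. The 8 ligands together took 2.37% ± 0.0741 of all counts in late stimulated cells, 2.08% ± 0.129 in late unstimulated cells, 1.84% ± 0.175 in early stimulated cells and 0.537% ± 0.00636 in early unstimulated cells.

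Ratios of counts inside a library do not depend on scaling between libraries. The CXCL2 to CXCL1 ratio went with time and not with stimulation at 4.5 months: it was 5.47 ± 0.0903 in late stimulated cells and 4.78 ± 0.158 in late unstimulated cells, against 2.93 ± 0.158 in early stimulated cells and 2.94 ± 0.0940 in early unstimulated cells. Late libraries ranged from 4.60 to 5.57 and early libraries from 2.75 to 3.05. Against CXCL2, CCL2 kept nearly the same proportion, at 14.5 ± 0.502 CCL2 counts per 1000 CXCL2 counts in late stimulated cells, 13.4 ± 1.02 in late unstimulated cells, 12.7 ± 1.55 in early stimulated cells and 14.7 ± 1.46 in early unstimulated cells. CXCL10 per 1000 CXCL2 counts was 0.314 ± 0.115 in late stimulated cells, 0.444 ± 0.205 in late unstimulated cells, 2.49 ± 0.206 in early stimulated cells and 14.6 ± 2.09 in early unstimulated cells (SD, n = 3 each). CCL3 per 1000 CCL4L1 counts was 387 ± 13.8 in late stimulated cells, 428 ± 2.27 in late unstimulated cells, 322 ± 49.0 in early stimulated cells and 348 ± 16.2 in early unstimulated cells. Early stimulated replicate 1 stood at 265, and replicates 2 and 3 at 353 and 347, within the range of the early unstimulated libraries. These ratios show unequal change between genes and carry no test.

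**Figure D3:**
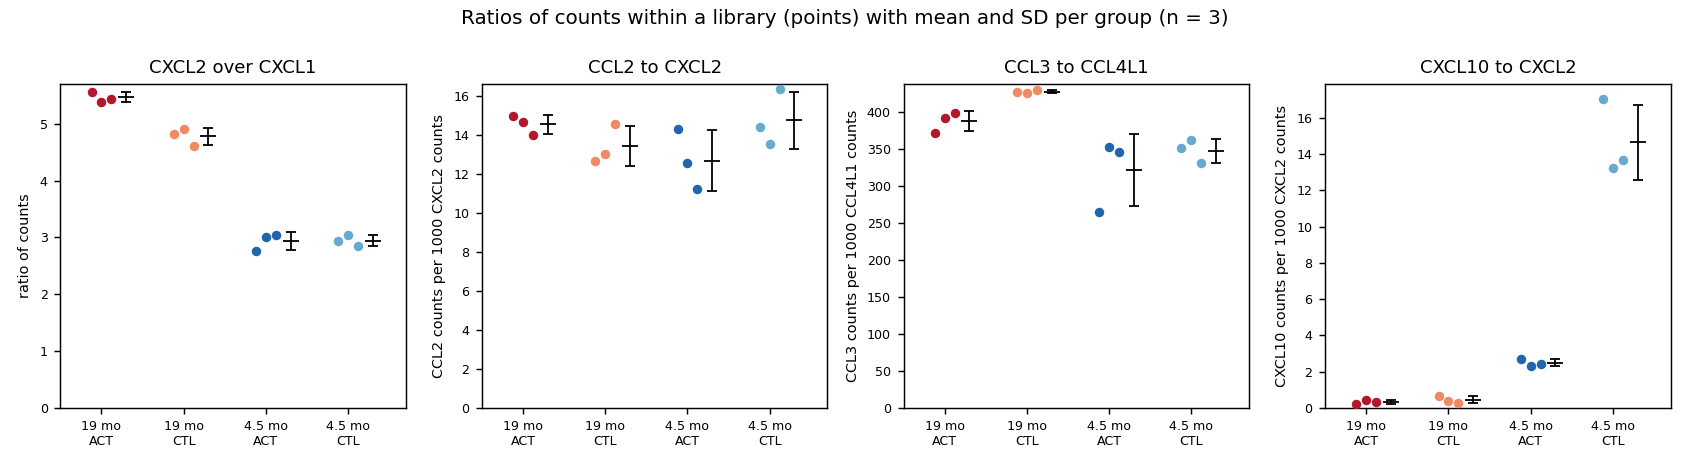
Ratios of counts within each library (vertical axes, from 0) for CXCL2 over CXCL1, CCL2 per 1000 CXCL2 counts, CCL3 per 1000 CCL4L1 counts and CXCL10 per 1000 CXCL2 counts, in late (19 mo) and early (4.5 mo) stimulated (ACT) and unstimulated (CTL) cells. Points are libraries with the mean and SD of 3 beside them. CXCL2 over CXCL1 splits late from early libraries, while CCL2 to CXCL2 overlaps in all groups.

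Of 51 further genes of the chemokine system, 37 were found by name and 19 were abundant enough to test. CCL4, CXCL8, CXCL11 and CX3CR1 were not found by name and were not analysed here. In unstimulated cells 8 of the 19 were higher late and 2 lower, with a median log2 fold change of 0.68, where 20.9% of all genes were higher and 19.8% lower. In stimulated cells 5 of the 19 were higher and 3 lower, near the shares over all genes of 19.1% and 19.7%. Stimulation at 4.5 months raised 5 and lowered 1, against 4.57% and 2.66% of all genes. At 19 months none of the 19 passed, and the interaction was negative for 3, against 1.23% of all genes.

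CCL7 was called in the same directions as CXCL1 in all 5 tests. CCL7, a monocyte attractant that also binds CCR2, averaged 37.0 ± 2.88 CPM in late stimulated cells, 31.3 ± 2.301 in late unstimulated cells, 28.7 ± 5.97 in early stimulated cells and 13.6 ± 0.840 in early unstimulated cells. It was higher late in unstimulated cells (log2 1.30 ± 0.17, edgeR adjusted p = 1.02e-06) and with stimulation at 4.5 months (log2 1.37, edgeR adjusted p = 1.96e-06), with an interaction of -1.10 (edgeR adjusted p = 0.00744). CXCL3 had log2 fold changes of 1.99 ± 0.12 and 1.95 in the same comparisons (edgeR adjusted p = 1.92e-12 and 4.97e-12).

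CCL18 and CXCL14 were higher late whether or not the cells were stimulated. CCL18, made by alternatively activated human macrophages, lies 14.7 kb from CCL3 and averaged 69.997 ± 4.41 CPM in late stimulated cells and 72.7 ± 6.00 in late unstimulated cells, against 25.6 ± 2.95 in early stimulated cells and 23.8 ± 1.65 in early unstimulated cells. Its late over early log2 fold change was 1.32 in stimulated cells (edgeR adjusted p = 8.92e-08) and 1.70 ± 0.14 in unstimulated cells (edgeR adjusted p = 1.06e-09). CXCL14 gave 0.54 in stimulated cells (edgeR adjusted p = 0.0116) and 1.12 ± 0.17 in unstimulated cells (edgeR adjusted p = 1.16e-05). Its call in stimulated cells was lost without a filter on low counts (edgeR adjusted p = 0.0507).

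The genes lower late were CXCL16, a membrane-bound chemokine that is also a scavenger receptor, and CXCR1, a neutrophil receptor for CXCL8. CXCL16 had log2 fold changes of -0.43 in stimulated cells (edgeR adjusted p = 0.0129) and -0.80 ± 0.14 in unstimulated cells (edgeR adjusted p = 4.86e-05). Its call in stimulated cells was lost with upper-quartile scaling (edgeR adjusted p = 0.0503) and without late stimulated replicate 1 (0.0657). CXCR1 had -1.65 in stimulated cells (edgeR adjusted p = 9.06e-06) and -1.28 ± 0.26 in unstimulated cells (edgeR adjusted p = 3.96e-04). CCL5, a T cell and monocyte attractant, was lower late in stimulated cells (log2 -0.96, edgeR adjusted p = 1.92e-04). In unstimulated cells its log2 fold change of -0.21 did not pass, and the interaction, which tests the difference of the 2 values, did not pass (-0.75, edgeR adjusted p = 0.230). Stimulation raised it at 4.5 months (log2 1.32, edgeR adjusted p = 1.82e-05). CXCR4, which holds cells in the bone marrow, was lower with stimulation at 4.5 months (log2 -0.72, edgeR adjusted p = 0.00114), and CCRL2, a non-signalling receptor that lies 43.2 kb from CCR2, was higher (log2 0.72, edgeR adjusted p = 0.0130). The CCRL2 call was lost without early stimulated replicate 2 (0.0665) or 3 (0.0553), or early unstimulated replicate 1 (0.0747) or 2 (0.0638).

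**Figure D4:**
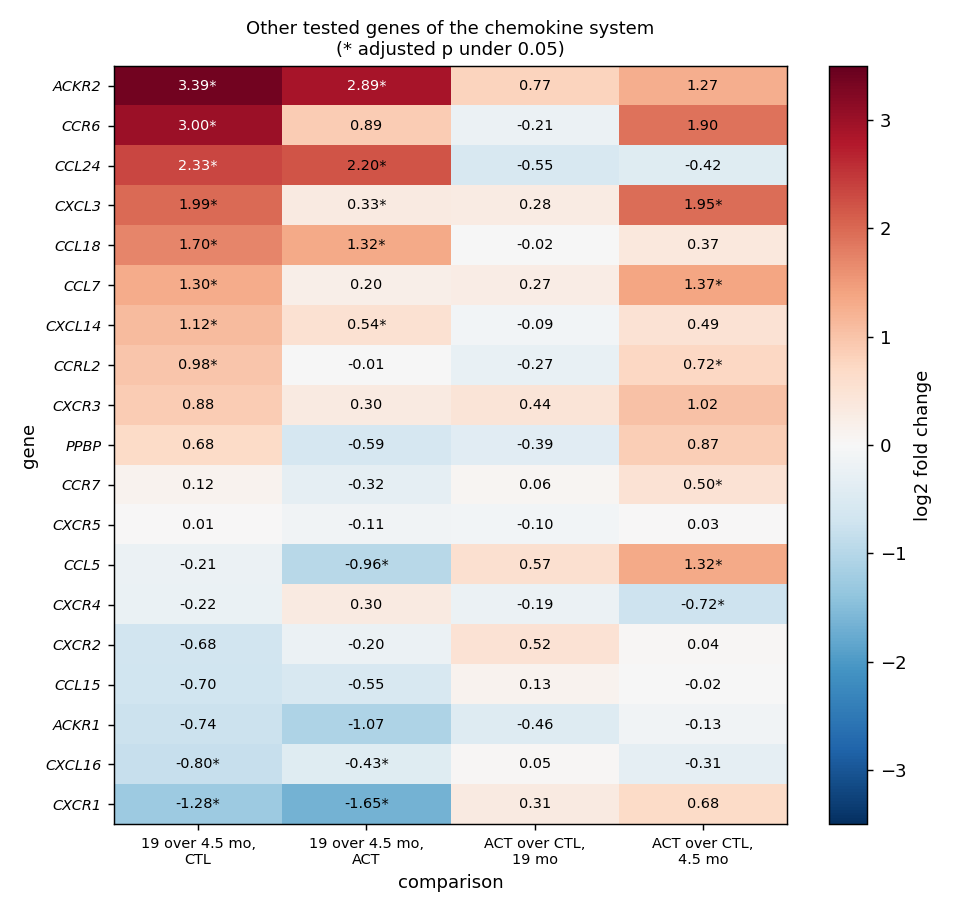
Log2 fold changes from edgeR for the 19 other tested genes of the chemokine system (rows) in the 4 comparisons (columns; mo, months; ACT, stimulated; CTL, unstimulated), with colour from blue for lower to red for higher. Stars mark an adjusted p under 0.05. No gene carries a star for stimulation at 19 months, and CXCL3 and CCL7 are starred both late over early in unstimulated cells and for stimulation at 4.5 months.

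The genes whose centred log2 levels over the 12 libraries lay nearest to those of 4 members were sought among 6715 candidates, by the mean absolute difference. Nearest to CXCL1 were CCL20 (0.113), the prostaglandin D2 receptor PTGDR (0.136) and CCL3 (0.165). Nearest to CCL2 were CXCL2 (0.112), the cyclooxygenase PTGS2 (0.126) and CD200 (0.138). CXCL10 had TYMP (0.296), HILPDA (0.307) and CYTH4 (0.308). CCR1 had ADD1 (0.0895), TRAF7 (0.0904) and MOB2 (0.0910). These distances describe the same libraries and carry no test. They are not scaled to the spread of a gene, so they are not compared between members.

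The authors' deposited tables list late over early differences, and all 10 genes are in the one for unstimulated cells. There the authors' deposited log2 fold changes were 1.81 for CXCL1, 2.51 for CXCL2, 2.37 for CCL2, 3.72 for CCL8, 1.89 for CCL3, 1.59 for CCL4L1, 1.64 for CCL20, -2.60 for CXCL10, -0.63 for CCR1 and -3.73 for CCR2. The authors' deposited table for stimulated cells holds 5 of the genes, CXCL2 (0.69), CCL2 (0.91), CCL8 (1.44), CXCL10 (-2.305) and CCR1 (-0.66), which are the 5 called above.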

How the data were processed

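RNA from 12 libraries was read as cDNA made with a SMART-Seq kit, which does not keep strand, and Nextera XT libraries, per the labels' protocols. The deposited table holds raw read counts per gene. The submitters' processing notes name bcl2fastq and the build Mmul_8.0.1, while the aligner and the counter were not given in the sources used here. The deposited result tables of late over early differences hold the authors' mean normalized count (a signal), log2 fold change, its standard error and test statistic (scores) and p-values. They also pair row identifiers with symbols and coordinates. For rows they did not name, an Ensembl name table was used.

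Counts were tested with edgeR 4.0.16 in R 4.3.3: TMM scaling, a filter on low counts by group (minimum count 10, total 15), 1 coefficient per group, robust quasi-likelihood F tests, and Benjamini-Hochberg adjustment over 11826 genes, threshold 0.05. The biological coefficient of variation was 0.143. CPM used library totals without TMM factors, and gene lengths were not available, so levels are not compared between genes. The procedure was tested on simulated data. Intervals of pooled counts are exact, 95%, and cover counting error only; a count of 0 allows up to 3 counts.

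The members and lists were chosen with earlier results of these data known. The text names all members, plus up to 4 other chemokine genes per direction and comparison with the smallest p and a mean of at least 5 CPM, CXCL9 excepted. Alternatives were DESeq2 1.42.0, other scalings, no filter, only the compared groups, a replicate block and each library left out.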

Additional observations from a re-analysis of the deposited data

Results flagged for a closer look

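The stimulation response differed between 19 and 4.5 months, by the interaction test of edgeR at an adjusted p under 0.05, for 10 genes of the chemokine system, and in each the log2 response was smaller at 19 months. Of all genes tested, 1.23% were lower in that test. For the members the interactions, in log2 units, were -1.99 for CXCL1, -1.80 for CXCL2, -1.45 for CCL2, -2.23 for CCL8, -1.83 for CCL3, -1.82 for CCL4L1 and -1.61 for CCL20. For other chemokine genes they were -1.66 for CXCL3, -1.10 for CCL7 and -0.99 for CCRL2. CXCL3 and CCL7 passed under the same test with adjusted p = 1.34e-07 and 0.00744, and CCRL2 with adjusted p = 0.0466. The CCRL2 call was lost with a replicate block (0.0846), without a filter on low counts (0.0818) and when any of 10 of the 12 libraries was left out (0.0751 to 0.158, the exceptions being replicate 1 of each stimulated group), and that of CCL8 when any of 5 libraries was left out (0.0506 to 0.0995). The early unstimulated libraries enter both the early response and the late over early difference in unstimulated cells, so these values are not independent of each other.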

How the results depend on the processing

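No call of a member turned its direction under any alternative, and the members called between late and early unstimulated cells were 7 higher and 3 lower under each of them. DESeq2 gave CCR2 no adjusted p for stimulation at 4.5 months, so 0 members were lower there, and leaving out single libraries gave 0 to 1. For stimulation at 19 months single libraries left out gave 0 to 1 members higher, and in the interaction 0 to 1 members higher (CCR2). CCL4L1 passed as lower late in stimulated cells without a filter (adjusted p = 0.0437), without late unstimulated replicate 3 (0.0494) and without early stimulated replicate 2 (0.0471); the other edgeR and DESeq2 alternatives gave up to 0.373. CXCL3 in stimulated cells was lost in 4 alternatives (0.0526 to 0.142). Of all genes, 855 were called for stimulation at 4.5 months, 503 when only those groups were fitted, and 464 to 1554 with single libraries left out. At 19 months 0 were called, against 2 with upper-quartile scaling, 5 without a filter, 15 with DESeq2, 10 with only those groups fitted and 0 to 29 with single libraries left out. The interaction called 167, 312 with DESeq2, and 95 to 546 with single libraries left out. With TMM-scaled CPM the neutrophil-attracting sum was 2509.8 in early unstimulated cells, and the monocyte-attracting sum was 9837 in early stimulated cells and 2197 in early unstimulated cells. Upper-quartile scaling moved the median log2 fold change of all genes to 0.15 between the times. Scaling factors made without the 50 most abundant genes and the chemokine genes, an alternative chosen after seeing the data, changed no member call. The causes were not tested. Low counts limit CCL8, CXCL9 and CCR2.

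Replicate numbers showed no pairing of the libraries common to the 4 comparisons. The correlation of same-numbered libraries' deviations ran from -0.0855 to 0.0968. Own numbers correlated best for 5 of 6 libraries between the times in unstimulated cells, where a weak pairing was not settled. They did so for 0 of 6 between the times in stimulated cells, and for 2 of 6 with stimulation at either time. With the replicate number as a block, 4596 and 4354 genes were called between the times in unstimulated and stimulated cells, 727 and 0 for stimulation at 4.5 and 19 months, and 114 in the interaction, and the counts of members called stayed as without it.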
